A study of Homo sapiens with 19 samples.

Results

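The 61 genes described here belong to 6 families of developmental transcription factors, GATA, SOX, TBX, LHX, PAX and the sine oculis homeobox family (gene symbols with the prefix of SIX4), and were taken by symbol alone (family name, a number and at most 1 letter) from the 34825 gene symbols measured by RNA-seq in HepG2, a human liver cancer cell line. They comprised 19 SOX, 13 TBX, 9 PAX, 8 LHX, 6 GATA and 6 sine oculis genes, and each of the 61 had a row in both deposited tables. In the first experiment, HepG2 cells received 50 nM of the control siRNA NTG, of siINO80#1 or of siINO80#2, with 3 libraries per siRNA, labelled A, B and C. In the second, cells were kept in 1 µM EPZ-6438 or in DMSO for 3 days, after which 50 nM of NTG or siMCRS1 was transfected. RNA was taken 72 h after transfection in both. The second experiment had 2 libraries for DMSO with NTG, 3 for DMSO with siMCRS1, 3 for EPZ-6438 with NTG and 2 for EPZ-6438 with siMCRS1. All groups came from the same cell line, each experiment had 1 control siRNA, and MCRS1 was targeted with 1 siRNA, so for MCRS1 an effect of the target and one of the siRNA sequence cannot be told apart. Nothing in the labels says that replicates were separate cultures, and p-values therefore measure the spread between these samples, which may be technical.

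GATA proteins bind DNA through zinc fingers, SOX proteins through an HMG box, TBX proteins through a T-box, PAX proteins through a paired domain, and LHX and sine oculis proteins through homeodomains, and all of them direct the formation of tissues in the embryo. Many of these genes are silenced outside their own tissue by Polycomb repressive complex 2 (PRC2), whose catalytic subunit EZH2 methylates histone H3 at lysine 27 around CpG-rich promoters and is the enzyme inhibited by EPZ-6438 (tazemetostat). INO80 is the ATPase of a chromatin remodeling complex, and MCRS1 is a subunit of the INO80 complex and of the NSL acetyltransferase complex. In liver, GATA4 and GATA6 act in the hepatic endoderm, TBX3 in the outgrowth of hepatoblasts, and SOX9 and SOX4 in the bile duct lineage.

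The deposited values, called normalized counts, are counts per gene that were scaled library by library. The 9 libraries of the INO80 experiment held 17093574 to 25369547 reads each, of which 3 reads were worth 2.30 to 3.58 normalized counts, and the 10 libraries of the drug experiment held 26038505 to 47397233, of which 3 were worth 2.13 to 4.30. Hepatocyte markers matched the labelled cell line, with 10 of 10 above a mean of 10 normalized counts in both experiments. Of 5 mesenchymal markers, 1 (INO80 experiment) or 2 (drug experiment) reached that mean, THY1 held at most 3 reads in any library, and so did LUM outside the 3 EPZ-6438 libraries with NTG, where it held 5 to 11. Of 5 blood markers, CD14, LYZ and PTPRC reached it, while CD3E and MS4A1 were at or near 0. The targeted genes were lower in every library with their siRNA. INO80 changed by -1.05 (adjusted p = 5.10e-06) with siINO80#1 and by -1.46 (adjusted p = 3.59e-07) with siINO80#2 on the log2 scale, and MCRS1 by -3.66 (adjusted p = 5.94e-06) in DMSO and -3.66 (adjusted p = 3.49e-06) in EPZ-6438. With siMCRS1, INO80 itself changed by -0.27 (adjusted p = 0.0387) in DMSO and -0.35 (adjusted p = 0.00966) in EPZ-6438. In the drug experiment the 2 EPZ-6438 libraries with siMCRS1, A and B, stood apart from each other for some members, with 39.2 and 280.5 normalized counts of PAX6 and 6826 and 12337 of SOX4, and values without either are given where they end a call. These and all following adjusted p-values are from limma on log2(normalized counts + 1), with Benjamini-Hochberg adjustment over all genes tested in the table, and a gene was called at an adjusted p under 0.05.

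Fewer family members lay above the filter than below it. The same held for all 34825 gene symbols, of which 14034 passed in the INO80 experiment and 14312 in the drug experiment. In the INO80 experiment, 28 of the 61 members passed the filter for testing, a mean over libraries of 10 or more normalized counts: 9 SOX, 7 TBX, 3 GATA, 3 LHX, 3 PAX and 3 sine oculis genes. A further 19 were lower but had a group mean of at least 1, 8 were below 1 in every group, and 6 had no read. In the drug experiment, 29 were tested (10 SOX, 7 TBX, 3 GATA, 3 LHX, 2 PAX and 4 sine oculis genes), 12 were lower with a group mean of at least 1, 11 were below 1 in every group, and 9 had no read. The tested sets shared 27 members. PAX5 was tested in the INO80 experiment alone, and SIX3 and SOX15 in the drug experiment alone. SOX3, SOX17, SOX21, TBX20 and TBX22 had no read in either experiment, SOX30 had none in the INO80 experiment, and PAX3, SIX2, SOX1 and SOX14 had none in the drug experiment. In the drug experiment LHX1 and SOX15 passed the filter through their DMSO groups alone, and TBX10 and TBX6 through their NTG groups alone, so that these members were tested only because 1 side was high. In the INO80 experiment TBX10 passed mostly through NTG, with group means of 54.4 in NTG, 10.1 with siINO80#1 and 7.61 with siINO80#2. A count of 0 means under the limit of 3 reads given above and does not show that a gene is silent. The plot of levels by family shows that each of the 6 families had members on both sides of the filter.

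**Figure D1:**
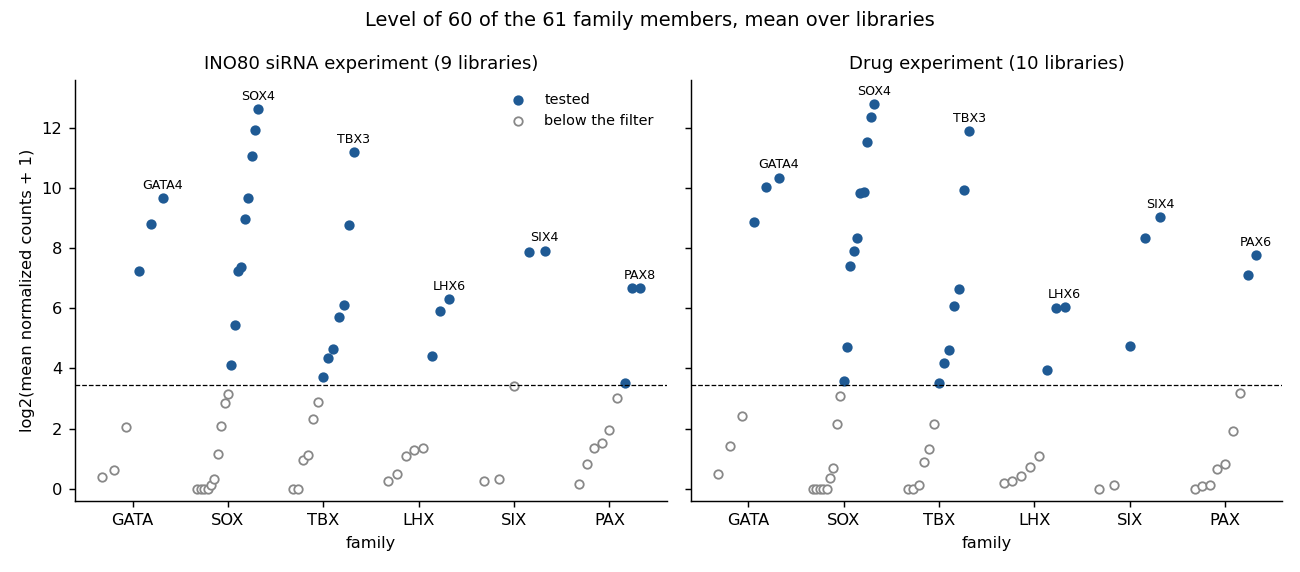
Level of 60 of the 61 family members in the INO80 siRNA experiment (left) and the drug experiment (right). Each point is 1 gene, with its family on the horizontal axis and log2(mean normalized counts + 1) over the 9 or 10 libraries on the vertical axis; filled points were tested, open points lay below the filter of a mean of 10 (dashed line), and the highest of the plotted members of each family is named. In each family some members lay above and some below the line. Values are not divided by transcript length, so heights do not rank genes.

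Knockdown of INO80 or of MCRS1 changed family members in both directions, and the share of members called was near or below that of all genes. With siINO80#1, 12 of 28 members were called, 6 higher and 6 lower, beside 41.6% of all 14034 genes tested (20.7% higher and 20.8% lower). With siINO80#2, 11 of 28 were called, 6 higher and 5 lower, beside 55% of all genes (26.6% higher and 28.4% lower). The median change of the tested members was 0.13 with siINO80#1 and 0.06 with siINO80#2 on the log2 scale, beside a median of 0.00 over all genes tested in each. With siMCRS1, 14 of 29 members were called in DMSO, 8 higher and 6 lower, beside 47.7% of all 14312 genes tested (23.1% higher and 24.6% lower). In EPZ-6438, 13 of 29 were called, 7 higher and 6 lower, beside 53.7% of all genes (26.8% higher and 26.9% lower). Members' medians were 0.20 in DMSO and -0.03 in EPZ-6438, beside 0.00 and 0.01 over all genes. When every library was instead brought to the same total, the median of all genes moved by -0.11 with siINO80#2 and by -0.23 (DMSO) and -0.24 (EPZ-6438) with siMCRS1, and the calls became 4 higher and 7 lower with siINO80#2, 4 higher and 6 lower with siMCRS1 in DMSO, and 4 higher and 10 lower in EPZ-6438. Fold changes below are relative to the deposited scaling. EPZ-6438 gave no called member in either siRNA background in this fit. These counts are therefore not a result about the families, and the values of single members follow, with nearly all tested members in the map of changes.

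**Figure D2:**
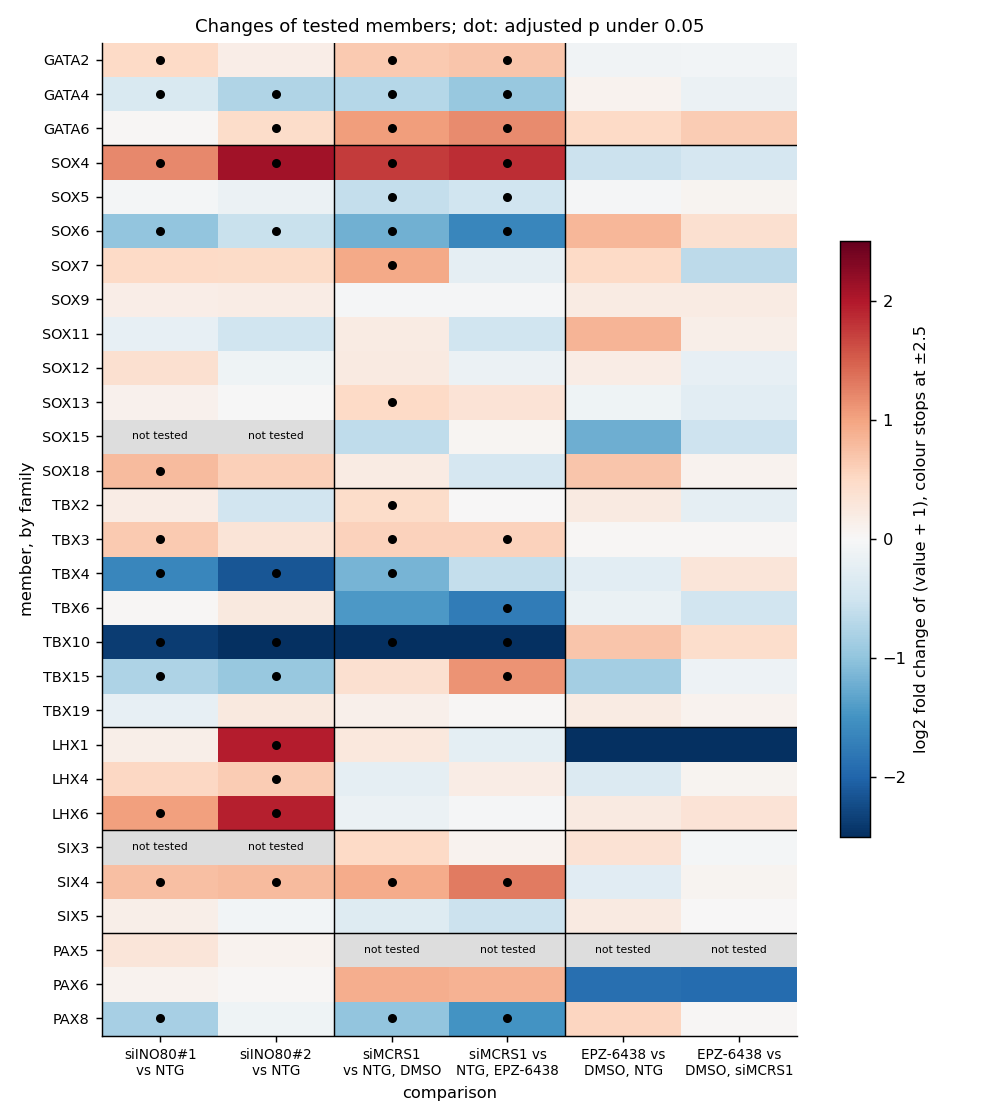
Log2 fold change of 29 of the 30 members tested in either experiment (rows, grouped by family) in each comparison, in 6 columns: siINO80#1, siINO80#2, siMCRS1 in DMSO, siMCRS1 in EPZ-6438, and EPZ-6438 against DMSO for each of NTG and siMCRS1. Colour runs from lower (blue) to higher (red) and stops at its ends, a black dot marks an adjusted p under 0.05, and grey cells were not tested. SOX4 and SIX4 were called higher and GATA4, SOX6 and TBX10 lower in each of the 4 siRNA comparisons with NTG, and no member was called in either EPZ-6438 comparison in the fit shown, which has no replicate block. The share of all genes called the same way in all 4 siRNA comparisons was not counted.

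SOX4 and SIX4 were called higher, and GATA4, SOX6 and TBX10 lower, with each INO80 siRNA and with siMCRS1 in each treatment. That is 2 and 3 of the 27 members tested in all 4 comparisons. The share of all genes called the same way in all 4 was not counted. As 41.6% to 55% of all genes were called in each comparison, this overlap is not a result about the members. TBX10 also passed the filter mostly (INO80 experiment) or only (drug experiment) through its NTG groups, so its calls are no separate support for a fall. The INO80 and drug experiments share no libraries, whereas both INO80 siRNAs were compared with the same NTG libraries. SOX4 is an HMG-box activator of embryonic and tumour programs, SIX4 a homeodomain partner of EYA proteins in muscle and kidney, GATA4 a zinc-finger activator of liver and heart genes, SOX6 an HMG-box factor of cartilage, muscle and red cell development, and TBX10 a little studied T-box gene. RefSeq (GRCh38.p14) places SOX4 at chr6:21593751-21598619, SIX4 at chr14:60709539-60724351, SOX6 at chr11:15966449-16738477 and TBX10 at chr11:67631303-67641754. The promoters of these 4 members are shown because PRC2 is known to act at CpG-rich promoters, and CG dinucleotides are printed in capitals. Each window runs from 250 bases before to 50 after the start used in the RefSeq promoter table, 5′ to 3′ along the gene's strand, at chr6:21593501-21593800 (plus strand) for SOX4, chr14:60724302-60724601 (minus strand) for SIX4, chr11:16738428-16738727 (minus strand) for SOX6 and chr11:67639714-67640013 (minus strand) for TBX10, whose window lies within the RefSeq gene span.
SOX4: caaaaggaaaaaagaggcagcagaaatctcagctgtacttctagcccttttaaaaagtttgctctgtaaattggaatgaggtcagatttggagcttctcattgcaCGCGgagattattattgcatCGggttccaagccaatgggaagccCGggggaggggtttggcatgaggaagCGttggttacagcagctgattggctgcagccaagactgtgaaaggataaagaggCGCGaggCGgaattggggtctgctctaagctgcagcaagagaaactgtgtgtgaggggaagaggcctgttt
SIX4: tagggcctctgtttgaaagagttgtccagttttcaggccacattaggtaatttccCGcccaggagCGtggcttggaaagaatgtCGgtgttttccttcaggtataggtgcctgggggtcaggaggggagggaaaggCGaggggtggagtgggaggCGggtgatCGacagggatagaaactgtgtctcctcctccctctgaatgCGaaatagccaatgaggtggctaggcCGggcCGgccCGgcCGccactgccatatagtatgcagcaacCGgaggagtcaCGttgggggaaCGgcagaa
SOX6: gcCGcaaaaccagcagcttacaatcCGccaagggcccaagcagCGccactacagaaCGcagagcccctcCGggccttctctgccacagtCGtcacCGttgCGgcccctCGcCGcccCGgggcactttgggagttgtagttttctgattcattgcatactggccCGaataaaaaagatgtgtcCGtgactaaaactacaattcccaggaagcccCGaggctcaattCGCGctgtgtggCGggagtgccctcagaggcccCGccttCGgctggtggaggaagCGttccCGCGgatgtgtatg
TBX10: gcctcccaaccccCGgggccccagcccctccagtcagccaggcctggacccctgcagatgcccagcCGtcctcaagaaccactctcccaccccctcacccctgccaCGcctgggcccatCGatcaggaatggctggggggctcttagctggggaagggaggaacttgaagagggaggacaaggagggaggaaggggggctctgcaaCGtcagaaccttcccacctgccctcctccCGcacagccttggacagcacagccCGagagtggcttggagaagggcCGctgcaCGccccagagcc

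The 4 windows held different numbers of CG dinucleotides, 8 in SOX4, 14 in SIX4, 22 in SOX6 and 9 in TBX10. Neither SOX4 and SIX4, called higher, nor SOX6 and TBX10, called lower, were uniformly rich in CG. The window of GATA4, also called lower, is not shown. Over the 41 members with a RefSeq promoter, the median was 21 CG per window, and over all 27305 promoters in the table it was 13. The ratio of observed to expected CG, which allows for base content, was 0.745 at the median for members and 0.577 for all promoters. Among the members the count ran from 2 to 54. The motif CCAAT, on either strand, was in the SOX4 and SIX4 windows and not in those of SOX6 and TBX10; it was in 18 of the 41 members' windows (43.9%) and in 35.7% of all promoters. TATAAA and ATGGCG, also read on both strands, were in none of the 4 windows, in 4.88% and 9.76% of the members' windows and in 12.02% and 11.01% of all promoters. None of the 3 motifs is contained in another, and a match describes the letters of the window only.

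In the INO80 experiment, the largest rise among the tested members was that of SOX4, and the SOX family moved in both directions. SOX4 had 2292, 2814 and 2308 normalized counts in NTG libraries A, B and C, 4981, 5513 and 6521 with siINO80#1 and 11137, 9341 and 11467 with siINO80#2. Every siINO80#1 library was above every NTG library, and every siINO80#2 library was above every siINO80#1 library. The log2 fold change was 1.20 ± 0.12 (SE, adjusted p = 3.28e-05) with siINO80#1 and 2.11 ± 0.12 (SE, adjusted p = 4.53e-07) with siINO80#2, that is 2.29-fold and 4.31-fold, and the step between the siRNAs was itself called at 0.91 ± 0.12 (SE, adjusted p = 7.64e-04). SOX6 had 205, 189 and 231 in NTG, 111, 98.2 and 104 with siINO80#1 and 113, 142 and 170.1 with siINO80#2. It was lower in each knockdown library than in any NTG library, by -0.99 ± 0.16 (SE, adjusted p = 5.67e-04) and -0.57 ± 0.16 (SE, adjusted p = 0.01002). SOX18, an HMG-box factor of vessel and lymphatic development, was called with siINO80#1 alone in the fit without a replicate block. It had 201 ± 53.8 (SD, n = 3) there against 117 ± 35.5 in NTG and 175 ± 41.6 with siINO80#2. It changed by 0.78 (adjusted p = 0.0418) with siINO80#1 and 0.59 (adjusted p = 0.0943) with siINO80#2, and the difference between the siRNAs was -0.20 (adjusted p = 0.659). The SOX18 call was lost without NTG A (adjusted p = 0.155), NTG B (0.0516), siINO80#1 B (0.105) or siINO80#1 C (0.152). With the letters A, B and C as a replicate block it was kept (adjusted p = 7.56e-04), and SOX18 was higher with siINO80#1 than with NTG within each letter. With that block SOX18 was also called with siINO80#2.

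The other SOX genes tested, SOX5, SOX7, SOX9, SOX11, SOX12 and SOX13, were not called against NTG with either siRNA. SOX9, the bile duct and progenitor factor, had 3602 ± 62.3 (SD, n = 3) in NTG, 4054 ± 372 with siINO80#1 and 4145 ± 679 with siINO80#2. SOX5, the close relative of SOX6, had 842 ± 52.0 in NTG, 818 ± 74.9 with siINO80#1 and 758 ± 65.1 with siINO80#2, a change of -0.04 (adjusted p = 0.734) and -0.15 (adjusted p = 0.192), where SOX6 was called lower with both. SOX12, in the same SOX group as SOX4 and SOX11, had 1968 ± 177 in NTG, 2627 ± 512 with siINO80#1 and 1847 ± 307 with siINO80#2, and its change with siINO80#1 was 0.40 (adjusted p = 0.0591), or called at an adjusted p of 0.00312 with the replicate block. SOX13, the third gene of the SOX5 and SOX6 group, had 487 ± 22.7 in NTG, 528 ± 32.6 with siINO80#1 and 485 ± 77.1 with siINO80#2. SOX11, a neural and mesenchymal relative of SOX4, had 46.8 ± 4.42 in NTG, 44.8 ± 21.5 with siINO80#1 and 36.6 ± 18.0 with siINO80#2, and SOX7, an endoderm and vessel factor, had 13.3 ± 6.67 in NTG, 17.4 ± 1.26 with siINO80#1 and 17.8 ± 6.66 with siINO80#2. SOX4 was the 1 gene of its group of 3 that was called against NTG without the block.

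Of the 7 TBX genes tested, 3 were called lower with both siRNAs, beside 17.2% of all genes. TBX10 had 58.0, 40.0 and 65.3 in NTG, 15.5, 6.94 and 7.87 with siINO80#1 and 1.12, 12.3 and 9.45 with siINO80#2. No knockdown library reached the lowest NTG library, and siINO80#2 A held a single read. The change was -2.37 ± 0.61 (SE, adjusted p = 0.01002) and -3.03 ± 0.61 (SE, adjusted p = 0.00165). TBX10 passed the filter mostly through NTG, so these p-values, and its place among the 3, are no separate support for the fall. TBX4, the factor of hind limb and lung bud, had 89.2, 99.6 and 107 in NTG, 38.2, 25.8 and 29.7 with siINO80#1 and 12.3, 30.6 and 26.5 with siINO80#2, again with no overlap between knockdown and NTG libraries, and its change was -1.64 ± 0.31 (SE, adjusted p = 0.00157) and -2.13 ± 0.31 (SE, adjusted p = 1.66e-04). TBX15, a factor of skeleton and muscle, had 90.3, 82.1 and 115 in NTG, 45.3, 58.5 and 63.0 with siINO80#1 and 33.7, 52.1 and 66.1 with siINO80#2. Its groups did not overlap with NTG either, and its change was -0.77 ± 0.25 (SE, adjusted p = 0.0295) and -0.95 ± 0.25 (SE, adjusted p = 0.00821). The TBX15 call with siINO80#1 was lost without NTG A (adjusted p = 0.0599), NTG C (0.114), siINO80#1 A (0.103) or siINO80#1 B (0.0577).

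TBX3, which is needed for hepatoblast growth, was called higher with siINO80#1 at 2890.3 ± 369.7 (SD, n = 3) against 1835 ± 184 in NTG, and had 2309.7 ± 341 with siINO80#2. Its changes were 0.65 (adjusted p = 0.00211) and 0.33 (adjusted p = 0.0506), and the 2 siRNAs differed by -0.33 (adjusted p = 0.0947), so a difference between them was not called. With the letters A, B and C as a replicate block, TBX3 was called with siINO80#2 and between the siRNAs. TBX2, its closest relative, had 453 ± 80.6 in NTG, 522 ± 127 with siINO80#1 and 326 ± 59.9 with siINO80#2. Its changes against NTG, 0.19 (adjusted p = 0.498) and -0.48 (adjusted p = 0.0692), were not called without the block. With the block, TBX2 was called with siINO80#2. TBX2 and TBX4 lie 42.955 kb apart on chromosome 17, and without the block TBX4 was the one of the pair called lower. TBX19, the pituitary factor, had 19.2 ± 6.14 in NTG, 16.3 ± 4.12 with siINO80#1 and 22.3 ± 2.33 with siINO80#2, and TBX6, the factor of somite formation, had 11.6 ± 5.47 in NTG, 11.3 ± 1.66 with siINO80#1 and 13.9 ± 6.62 with siINO80#2; neither was called.

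The 3 tested LHX genes were called higher with siINO80#2, beside 26.6% of all genes, and LHX6 also with siINO80#1. LHX6, the factor of cortical interneurons, had 23.4, 41.1 and 37.4 in NTG, 66.8, 79.3 and 61.2 with siINO80#1 and 116, 129 and 145 with siINO80#2. The 3 groups formed 3 separate ranges. The change was 1.03 ± 0.22 (SE, adjusted p = 0.00331) and 1.94 ± 0.22 (SE, adjusted p = 3.13e-05), or 2.05-fold and 3.83-fold. LHX1, the factor of kidney and head organizer, had 10.04, 7.19 and 11.5 in NTG, 11.9, 6.94 and 14.0 with siINO80#1 and 35.9, 33.7 and 51.0 with siINO80#2, so that only siINO80#2 stood above NTG. LHX1 changed by 0.15 ± 0.33 (SE, adjusted p = 0.751) with siINO80#1 and by 1.96 ± 0.33 (SE, adjusted p = 4.80e-04) with siINO80#2. LHX4, of pituitary development, had 44.3 ± 12.1 in NTG, 62.8 ± 10.6 with siINO80#1 and 68.4 ± 12.7 with siINO80#2 (mean ± SD, n = 3 each), and changed by 0.52 (adjusted p = 0.0998) and 0.63 (adjusted p = 0.0383). The LHX4 call with siINO80#2 was lost without NTG B (adjusted p = 0.144), NTG C (0.0830), siINO80#1 C (0.0502), siINO80#2 B (0.0633) or siINO80#2 C (0.118).

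SIX4 was the sine oculis gene called with both INO80 siRNAs. It had 161, 186 and 147 in NTG, 268, 310.3 and 251 with siINO80#1 and 263, 301 and 288 with siINO80#2. The knockdown libraries lay above all NTG libraries and the 2 knockdown groups overlapped. Its change was 0.75 ± 0.12 (SE, adjusted p = 7.41e-04) and 0.79 ± 0.12 (SE, adjusted p = 2.99e-04), and the siRNAs differed by 0.04 (adjusted p = 0.849). SIX5, on another chromosome, had 231 ± 31.3 in NTG, 257 ± 34.9 with siINO80#1 and 219 ± 27.8 with siINO80#2 (mean ± SD, n = 3 each) and was not called.

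Of the 3 GATA genes tested, 2 were called with siINO80#1 (GATA2 higher, GATA4 lower) and 2 with siINO80#2 (GATA6 higher, GATA4 lower), beside 41.6% and 55% of all genes. GATA4 had 1005, 992 and 1077 in NTG, 756, 742 and 870.1 with siINO80#1 and 527, 566 and 738 with siINO80#2. Each group lay below the one before it without overlap. The change was -0.38 ± 0.12 (SE, adjusted p = 0.0268) and -0.76 ± 0.12 (SE, adjusted p = 3.21e-04). The call with siINO80#1 was lost without NTG A (adjusted p = 0.0578), NTG B (0.0514), NTG C (0.0903), siINO80#1 A (0.0805) or siINO80#1 B (0.0925), while that with siINO80#2 was kept whichever library was left out. GATA2, a factor of blood progenitors and endothelium, had 377 ± 22.4 (SD, n = 3) in NTG, 535 ± 4.91 with siINO80#1 and 423 ± 14.4 with siINO80#2, a change of 0.50 (adjusted p = 5.20e-04) and 0.17 (adjusted p = 0.0972). GATA6, which shares the endoderm role of GATA4, had 132 ± 7.89 in NTG, 136 ± 21.9 with siINO80#1 and 182 ± 17.1 with siINO80#2, a change of 0.03 (adjusted p = 0.893) and 0.45 (adjusted p = 0.0199). The GATA6 call was lost without NTG A (adjusted p = 0.0648), NTG C (0.0517) or siINO80#2 B (0.0658).

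Of the 10 hepatocyte markers, 5 were called lower with siINO80#2 (ALB, APOA1, TTR, TF and HNF4A) and 1 with siINO80#1, beside 28.4% and 20.8% of all genes. The other 5, AFP, APOB, SERPINA1, FGB and FOXA2, were not called with siINO80#2 and ranged from -0.10 to 0.18. HNF4A, a master regulator of hepatocytes, changed by -0.45 (adjusted p = 8.18e-04) with siINO80#1 and -1.02 (adjusted p = 1.87e-06) with siINO80#2. Their part in the change of GATA4 and of the other members was not tested. Mesenchymal markers summed to 14.3 to 33.7 normalized counts over the 9 libraries, with 15.4 to 24.5 in NTG and 27.4 to 33.7 with siINO80#2. Blood markers summed to 35910 to 39830 in NTG and 47843 to 55575 with siINO80#2, nearly all of it LYZ.

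Of the PAX genes, PAX8 was called with siINO80#1 alone. PAX8, the thyroid and kidney factor, had 115, 119 and 133 in NTG, 72.7, 68.4 and 63.8 with siINO80#1 and 98.7, 97.3 and 151 with siINO80#2. The siINO80#1 libraries were below all others, and the siINO80#2 libraries spanned the NTG range. Its change was -0.83 ± 0.18 (SE, adjusted p = 0.00367) with siINO80#1 and -0.11 ± 0.18 (SE, adjusted p = 0.631) with siINO80#2. PAX6, the eye and pancreas factor, had 99.5 ± 19.0 in NTG, 107 ± 24.03 with siINO80#1 and 100.03 ± 9.12 with siINO80#2 (mean ± SD, n = 3 each), and PAX5, the B-cell factor, had 10.4 ± 6.29 in NTG, 11.3 ± 1.68 with siINO80#1 and 9.76 ± 2.71 with siINO80#2; neither was called. The plot of the INO80 experiment by library shows the members called in the same direction by both siRNAs.

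**Figure D3:**
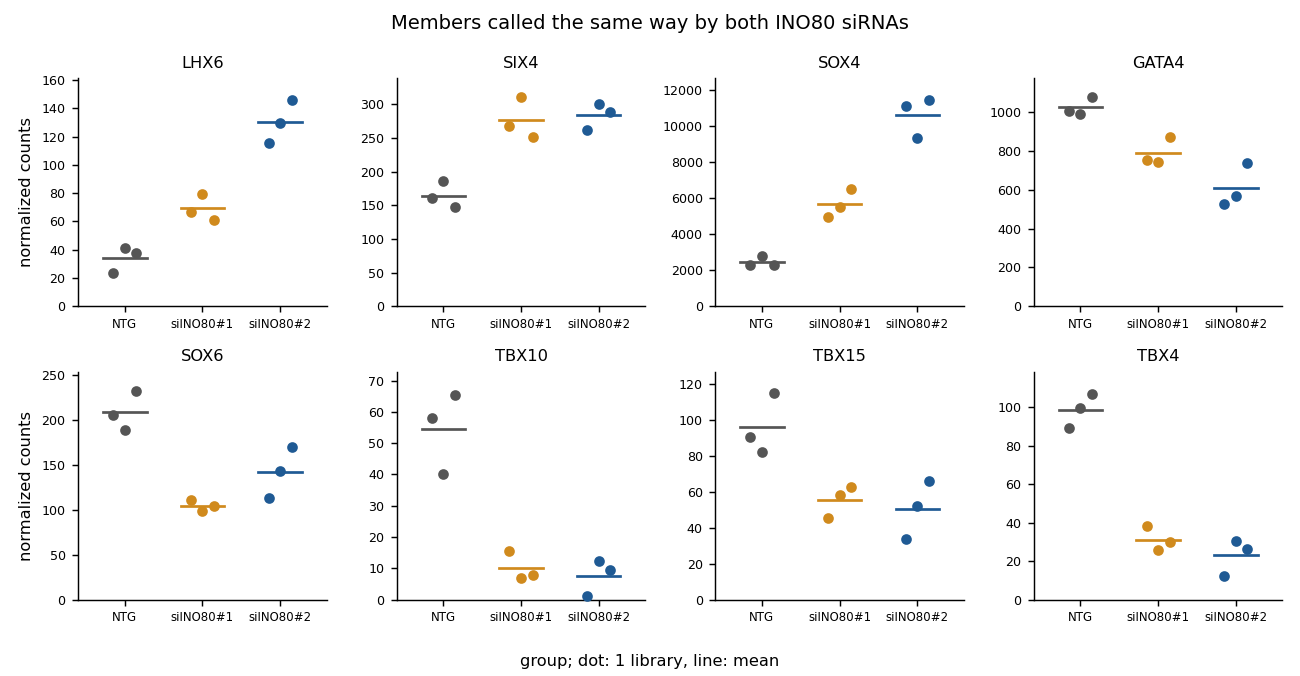
Normalized counts of the 8 members called the same way by both INO80 siRNAs, in the 9 libraries of the INO80 experiment, 1 panel per gene, with normalized counts on a linear vertical axis from 0, groups on the horizontal axis, 1 dot per library and a line at the group mean. SOX4, SIX4 and LHX6 lay above NTG with both siRNAs, and GATA4, SOX6, TBX10, TBX15 and TBX4 lay below it with both.

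The 2 INO80 siRNAs were also compared with each other, which asks whether a member's change depended on the siRNA. In this comparison 8 of 28 members were called, 4 higher and 4 lower with siINO80#2, beside 22.1% of all genes (9.48% higher and 12.6% lower). INO80 itself was lower with siINO80#2 than with siINO80#1, by -0.40 (adjusted p = 0.00577), so depth of knockdown and siRNA sequence cannot be told apart here. Higher with siINO80#2 were LHX1 by 1.81 ± 0.33 (SE, adjusted p = 0.00369), SOX4 by the value given above, LHX6 by 0.91 ± 0.22 (SE, adjusted p = 0.0144) and PAX8 by 0.72 ± 0.18 (SE, adjusted p = 0.0161). The first 3 lay farther above NTG with siINO80#2 than with siINO80#1, whereas the siINO80#2 libraries of PAX8 overlapped NTG and its siINO80#1 libraries lay below it. Lower with siINO80#2 were TBX2 by -0.66 ± 0.20 (SE, adjusted p = 0.0400), SOX12 by -0.50 ± 0.15 (SE, adjusted p = 0.0401), GATA4 by -0.38 ± 0.12 (SE, adjusted p = 0.0441) and GATA2 by -0.34 ± 0.08 (SE, adjusted p = 0.0121). GATA4 fell further from NTG, and GATA2 lay between NTG and siINO80#1. TBX2 and SOX12 were called between the siRNAs although neither was called against NTG without a replicate block. With the letters as a block, GATA6 and TBX3 were also called between the siRNAs. Without siINO80#1 C, 3 members were called instead of 8, and the adjusted p of LHX6 was 0.0562 and that of PAX8 0.0577. Without siINO80#1 B or without NTG C, 5 were called. The calls of the 3 genes with the least stable difference were lost without more libraries than these: GATA4 without NTG A (adjusted p = 0.0628), siINO80#1 A (0.0826), siINO80#2 A (0.145), NTG B (0.0619), siINO80#1 B (0.0701), siINO80#2 B (0.0974), NTG C (0.0615) or siINO80#1 C (0.150), SOX12 without siINO80#2 A (adjusted p = 0.131), NTG B (0.0552), siINO80#1 B (0.111), NTG C (0.0578) or siINO80#1 C (0.142), and TBX2 without siINO80#2 A (adjusted p = 0.131), siINO80#1 B (0.144), NTG C (0.0599) or siINO80#1 C (0.124). Under quantile normalization 5 members were called higher and 1 lower.

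Knockdown of MCRS1 gave the largest fall among the tested members, in TBX10, and was measured once in DMSO and once in EPZ-6438, in separate libraries. TBX10 had 37.3 and 13.4 normalized counts in the 2 DMSO libraries with NTG and 1.11, 1.101 and 0 in the 3 with siMCRS1, and 36.6, 53.3 and 25.2 against 0.800 and 1.78 in EPZ-6438. The siMCRS1 libraries held 0 to 2 reads each and lay below all NTG libraries. Pooled per group, 2 reads against 53 in DMSO gave a ratio of 0.0315 (exact 95% counting interval 0.00372 to 0.120), and 3 against 133 in EPZ-6438 gave 0.0312 (0.00635 to 0.0932), intervals that cover counting error only. The fitted log2 fold change was -3.84 (adjusted p = 5.15e-04) and -4.08 (adjusted p = 2.60e-04), and at so few reads its size depends on the added 1. TBX10 passed the filter through its NTG groups alone, so these p-values are no separate support for the fall. TBX3 had 2652 and 3399 in DMSO with NTG, 3873, 4894 and 4818 with siMCRS1, 2549, 3153 and 3604 in EPZ-6438 with NTG and 4433 and 4712 with siMCRS1. It was above the NTG libraries of its treatment in all siMCRS1 libraries, by 0.58 ± 0.16 (SE, adjusted p = 0.0126) and 0.57 ± 0.16 (SE, adjusted p = 0.0122). Its call was lost in DMSO without DMSO NTG 1 (change 0.41) and in EPZ-6438 without EPZ-6438 siMCRS1 B (0.53). Over all alternative runs, which also varied the scaling and the test, the call was lost in 3 of 24 in DMSO and 3 of 22 in EPZ-6438. The change over these runs went down to 0.35 and 0.33.

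The other TBX genes were called in 1 treatment or in none. TBX4 had 140.05 ± 11.8 in DMSO with NTG, 65.0 ± 24.7 in DMSO with siMCRS1, 118 ± 22.05 in EPZ-6438 with NTG and 77.6 ± 18.1 in EPZ-6438 with siMCRS1 (mean ± SD, n = 2, 3, 3 and 2). It changed by -1.15 (adjusted p = 0.00826) in DMSO and -0.60 (adjusted p = 0.110) in EPZ-6438, and the first call was lost without DMSO NTG 1 (adjusted p = 0.0649). TBX15, called lower in the INO80 experiment, had 64.0 ± 9.32 in DMSO with NTG, 84.9 ± 8.999 in DMSO with siMCRS1, 37.5 ± 18.1 in EPZ-6438 with NTG and 83.8 ± 47.2 in EPZ-6438 with siMCRS1. It changed by 0.40 (adjusted p = 0.438) in DMSO and by 1.12 (adjusted p = 0.0366) in EPZ-6438. The 2 EPZ-6438 libraries with siMCRS1 differed for this gene, at 50.4 and 117, and the call was lost without EPZ-6438 NTG 1 (adjusted p = 0.109), EPZ-6438 NTG 3 (0.0943) or EPZ-6438 siMCRS1 B (0.386). TBX2 had 813 ± 131 in DMSO with NTG, 1113 ± 65.3 in DMSO with siMCRS1, 952 ± 99.5 in EPZ-6438 with NTG and 958 ± 51.0 in EPZ-6438 with siMCRS1, changing by 0.46 (adjusted p = 0.0142) and 0.01 (adjusted p = 0.940), and its call in DMSO was lost without DMSO NTG 3 (adjusted p = 0.156). TBX6 had 16.2 ± 1.31 in DMSO with NTG, 6.75 ± 4.88 in DMSO with siMCRS1, 14.5 ± 2.51 in EPZ-6438 with NTG and 4.09 ± 3.27 in EPZ-6438 with siMCRS1, changing by -1.44 (adjusted p = 0.104) and -1.76 (adjusted p = 0.0483). With the numbers in the table's column names as a replicate block, TBX6 was also called in DMSO (adjusted p = 0.0402), beside 55.9% of all genes. TBX6 passed the filter through its NTG groups alone, so its p-values are no separate support for a fall. The TBX6 call in EPZ-6438 was lost without DMSO NTG 1 (adjusted p = 0.0609), DMSO NTG 3 (0.0604), DMSO siMCRS1 1 (0.0528), EPZ-6438 NTG 1 (0.0988), EPZ-6438 NTG 2 (0.0983), EPZ-6438 NTG 3 (0.0661) or EPZ-6438 siMCRS1 B (0.345). TBX19 had 21.5 ± 7.39 in DMSO with NTG, 23.1 ± 4.15 in DMSO with siMCRS1, 24.3 ± 4.05 in EPZ-6438 with NTG and 24.5 ± 2.99 in EPZ-6438 with siMCRS1, and was not called.

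SOX4 and SOX6 again moved in opposite directions. SOX4 had 3149.9 and 4264 normalized counts in DMSO with NTG, 11478, 11961 and 13593 with siMCRS1, 2157, 3349.6 and 2257 in EPZ-6438 with NTG and 6826 and 12337 with siMCRS1. Every siMCRS1 library was above every NTG library, although the 2 EPZ-6438 siMCRS1 libraries were far apart. The change was 1.75 ± 0.25 (SE, adjusted p = 2.98e-04) in DMSO and 1.86 ± 0.25 (SE, adjusted p = 1.46e-04) in EPZ-6438, or 3.36-fold and 3.62-fold. SOX6 had 271 and 212 in DMSO with NTG, 109, 100.2 and 100.3 in DMSO with siMCRS1, 475, 289.9 and 554 in EPZ-6438 with NTG and 195 and 95.9 in EPZ-6438 with siMCRS1. It was below its NTG libraries in each treatment, by -1.21 ± 0.32 (SE, adjusted p = 0.00912) and -1.62 ± 0.32 (SE, adjusted p = 0.00142), and the call in DMSO was lost without DMSO NTG 1 (adjusted p = 0.0824). SOX5 had 1057 and 1198 in DMSO with NTG, 777, 710.4 and 743 in DMSO with siMCRS1, 904, 1241 and 1206 in EPZ-6438 with NTG and 728 and 843 in EPZ-6438 with siMCRS1. Its siMCRS1 libraries lay below the NTG libraries of the same treatment, by -0.60 ± 0.15 (SE, adjusted p = 0.00676) and -0.50 ± 0.15 (SE, adjusted p = 0.0152). The SOX5 call was lost in DMSO without DMSO NTG 3 (adjusted p = 0.0630) and in EPZ-6438 without EPZ-6438 NTG 2 (0.0501) or EPZ-6438 siMCRS1 A (0.116).

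SOX13 and SOX7 were called higher with siMCRS1 in DMSO alone. SOX13 had 789 ± 7.20 in DMSO with NTG, 1115 ± 59.0 in DMSO with siMCRS1, 744 ± 129 in EPZ-6438 with NTG and 935 ± 73.4 in EPZ-6438 with siMCRS1 (mean ± SD, n = 2, 3, 3 and 2), and changed by 0.50 (adjusted p = 0.0148) and 0.34 (adjusted p = 0.0651). SOX7 had 17.2 ± 2.66 in DMSO with NTG, 34.0 ± 5.405 in DMSO with siMCRS1, 24.8 ± 4.17 in EPZ-6438 with NTG and 21.0 ± 0.838 in EPZ-6438 with siMCRS1, and changed by 0.94 (adjusted p = 0.0228) and -0.22 (adjusted p = 0.562). Both calls in DMSO rested on single libraries: without DMSO NTG 1 the adjusted p was 0.0689 for SOX13 and 0.139 for SOX7, without DMSO NTG 3 it was 0.0703 for SOX13, and without DMSO siMCRS1 3 it was 0.0719 for SOX7. SOX9, SOX11, SOX12, SOX15 and SOX18 were not called with siMCRS1 in either treatment. SOX9 had 4929 ± 80.7 in DMSO with NTG, 4836 ± 169 in DMSO with siMCRS1, 5785 ± 1063 in EPZ-6438 with NTG and 5611 ± 374 in EPZ-6438 with siMCRS1, with 95% intervals of the log2 difference of -0.33 to 0.27 and -0.33 to 0.27. SOX12 had 2750.3 ± 669 in DMSO with NTG, 3175 ± 453 in DMSO with siMCRS1, 3075 ± 339 in EPZ-6438 with NTG and 2761 ± 311 in EPZ-6438 with siMCRS1. SOX11 had 126 ± 29.5 in DMSO with NTG, 144 ± 20.1 in DMSO with siMCRS1, 231 ± 56.4 in EPZ-6438 with NTG and 163 ± 51.3 in EPZ-6438 with siMCRS1, SOX18 had 253 ± 19.0 in DMSO with NTG, 294 ± 54.5 in DMSO with siMCRS1, 412 ± 57.9 in EPZ-6438 with NTG and 307 ± 8.29 in EPZ-6438 with siMCRS1, and SOX15 had 18.2 ± 2.66 in DMSO with NTG, 11.99 ± 5.26 in DMSO with siMCRS1, 7.22 ± 0.803 in EPZ-6438 with NTG and 7.86 ± 3.59 in EPZ-6438 with siMCRS1.

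All 3 tested GATA genes were called with siMCRS1 in both treatments, GATA4 lower and GATA2 and GATA6 higher, beside 22% of all genes lower and 20.8% higher in both. GATA4 had 1674 and 1529.8 in DMSO with NTG, 1111, 902 and 929.6 with siMCRS1, 1392, 2041 and 1702 in EPZ-6438 with NTG and 957 and 803 with siMCRS1. Its siMCRS1 libraries were below all NTG libraries, by -0.71 ± 0.16 (SE, adjusted p = 0.00443) and -0.95 ± 0.16 (SE, adjusted p = 6.52e-04). GATA6 had 239 and 254 in DMSO with NTG, 469, 577 and 491 in DMSO with siMCRS1, 364, 394 and 292 in EPZ-6438 with NTG and 682 and 918 in EPZ-6438 with siMCRS1. It moved the other way, with all siMCRS1 libraries above all NTG libraries, by 1.05 ± 0.17 (SE, adjusted p = 7.17e-04) and 1.19 ± 0.17 (SE, adjusted p = 2.52e-04). GATA2 had 873 and 791 in DMSO with NTG, 1353, 1355 and 1220.4 in DMSO with siMCRS1, 679.8, 918 and 756 in EPZ-6438 with NTG and 1138 and 1385 in EPZ-6438 with siMCRS1, and its siMCRS1 libraries were likewise above all NTG libraries. It changed by 0.65 ± 0.14 (SE, adjusted p = 0.00349) and 0.69 ± 0.14 (SE, adjusted p = 0.00210). Of the 10 hepatocyte markers, 1 was called higher and 1 lower with siMCRS1 in each treatment. Beside them, 23.1% of all genes were called higher and 24.6% lower in DMSO, and 26.8% and 26.9% in EPZ-6438. The marker called higher was FOXA2 in DMSO, at 0.51 (adjusted p = 0.0237), and ALB in EPZ-6438, at 0.57 (adjusted p = 0.0269). The lower one was HNF4A, which changed by -0.55 (adjusted p = 0.0165) in DMSO and -0.55 (adjusted p = 0.0153) in EPZ-6438.

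SIX4 was the sine oculis gene called in both treatments. It had 369 and 368 in DMSO with NTG, 625, 723 and 761 with siMCRS1, 326, 321 and 261 in EPZ-6438 with NTG and 675 and 806 with siMCRS1. No siMCRS1 library overlapped the NTG libraries, and the change was 0.92 ± 0.15 (SE, adjusted p = 5.64e-04) and 1.29 ± 0.15 (SE, adjusted p = 5.52e-05). SIX3, the forebrain and eye factor, had 19.6 ± 0.720 in DMSO with NTG, 28.1 ± 3.14 in DMSO with siMCRS1, 27.3 ± 12.2 in EPZ-6438 with NTG and 26.9 ± 1.598 in EPZ-6438 with siMCRS1 (mean ± SD, n = 2, 3, 3 and 2), and SIX5 had 339 ± 69.7 in DMSO with NTG, 272 ± 65.2 in DMSO with siMCRS1, 395 ± 70.3 in EPZ-6438 with NTG and 271 ± 47.9 in EPZ-6438 with siMCRS1. Neither was called.

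PAX8 was called lower with siMCRS1 in both treatments. It had 153 and 155 in DMSO with NTG, 86.8, 84.8 and 63.0 with siMCRS1, 179, 262 and 235 in EPZ-6438 with NTG and 78.4 and 79.0 with siMCRS1. The siMCRS1 libraries all lay below the NTG libraries, by -0.98 ± 0.21 (SE, adjusted p = 0.00347) and -1.49 ± 0.21 (SE, adjusted p = 2.21e-04). PAX6 was not called, although its DMSO groups did not overlap, at 170.4 and 268 with NTG against 354, 325 and 560.1 with siMCRS1. It changed by 0.90 (adjusted p = 0.300) in DMSO and 0.87 (adjusted p = 0.306) in EPZ-6438. The LHX genes, which were higher with siINO80#2, were not called with siMCRS1. LHX6 had 61.2 ± 2.56 in DMSO with NTG, 55.9 ± 10.8 in DMSO with siMCRS1, 72.4 ± 8.98 in EPZ-6438 with NTG and 71.7 ± 17.3 in EPZ-6438 with siMCRS1 (mean ± SD, n = 2, 3, 3 and 2), with 95% intervals of the log2 difference of -0.69 to 0.41 and -0.58 to 0.52. LHX4 had 70.2 ± 9.98 in DMSO with NTG, 60.7 ± 11.9 in DMSO with siMCRS1, 60.1 ± 32.7 in EPZ-6438 with NTG and 62.8 ± 2.82 in EPZ-6438 with siMCRS1. LHX1 changed by 0.27 (adjusted p = 0.816) and -0.24 (adjusted p = 0.839). The plot of the siMCRS1 comparison by library shows the members called in both treatments.

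**Figure D4:**
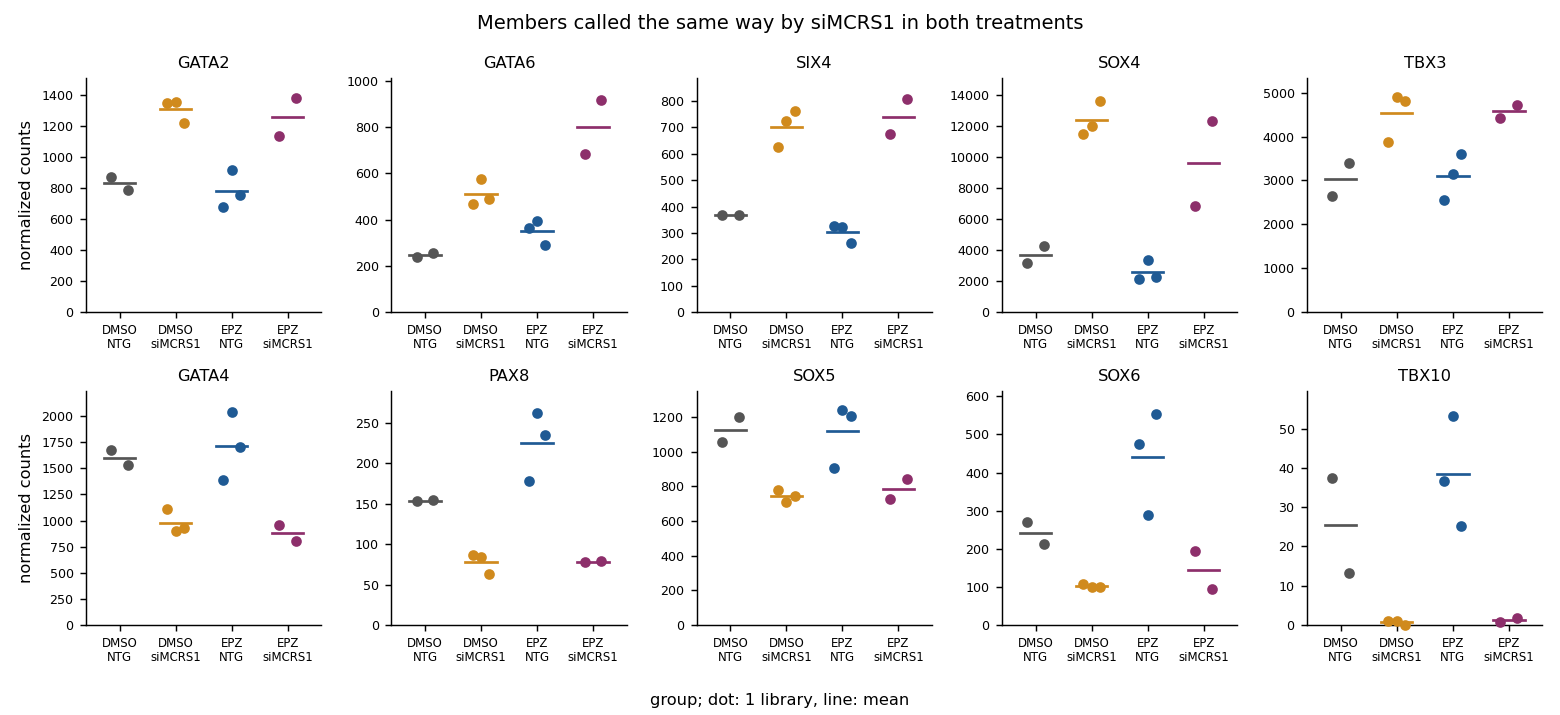
Normalized counts of the members called the same way by siMCRS1 in both treatments, in the 10 libraries of the drug experiment, 1 panel per gene, with normalized counts on a linear vertical axis from 0, groups on the horizontal axis, 1 dot per library and a line at the group mean. GATA2, GATA6, SIX4, SOX4 and TBX3 lay higher, and GATA4, PAX8, SOX5, SOX6 and TBX10 lower, in the siMCRS1 libraries of each treatment than in the NTG libraries of that treatment.

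Counting the members called the same way in a pair of comparisons, 3 of 28 were called higher and 5 lower with both INO80 siRNAs, beside 17.4% and 17.2% of all genes, none was called in opposite directions, and 13 were called in neither. With siMCRS1, 5 of 29 were called higher and 5 lower in both treatments, beside 20.8% and 22% of all genes, none in opposite directions, and 12 were called in neither. The members' shares were near or below those of all genes.

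Without a replicate block, limma called few genes with EPZ-6438, and no family member was called in either siRNA background. With NTG, 0 of 29 members were called beside 0.384% of all genes, 8 had an unadjusted p under 0.05 (SOX18, LHX1, SOX11, GATA6, PAX6, SOX6, SOX15 and PAX8), edgeR on the recovered reads called 0, and DESeq2 called 2, LHX1 and SOX18, beside 5.04% of all genes by DESeq2. With the numbers in the table's column names as a replicate block, added after the data were seen and fitted to the 8 libraries that carry numbers, limma called 4 members, SOX6 and SOX18 higher and LHX1 and PAX6 lower, beside 8.11% of all genes. Their adjusted p-values there were 0.0412 for SOX6, 0.0376 for SOX18, 0.0307 for LHX1 and 0.0293 for PAX6, and the same 8 libraries without the block gave 0. With siMCRS1, 0 of 29 were called beside 0.0908% of all genes, 4 had an unadjusted p under 0.05 (LHX1, GATA6, PAX6 and SOX7), and edgeR and DESeq2 called 0 each. In a comparison added after the data were seen, the mean effect of EPZ-6438 over both siRNAs, 2 of 29 members were called, GATA6 higher and LHX1 lower, beside 3.49% of all genes (2.57% higher, 0.915% lower). Before adjustment, 9 members had a p under 0.05. LHX1 and SOX15 passed the filter through their DMSO groups alone, so their p-values and the LHX1 calls are no separate support for a fall with EPZ-6438.

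LHX1, GATA6 and PAX6 were picked out after their values were seen. LHX1 had 16.3 and 31.5 in DMSO with NTG, 25.6, 22.03 and 37.2 in DMSO with siMCRS1, 0, 5.68 and 2.10 in EPZ-6438 with NTG and 0 and 4.44 in EPZ-6438 with siMCRS1, in normalized counts. All 5 EPZ-6438 libraries were below all 5 DMSO libraries. Its change was -3.11 (adjusted p = 0.120) with NTG, -3.62 (adjusted p = 0.192) with siMCRS1 and -3.36 ± 0.61 (SE, adjusted p = 0.0186) over both. As LHX1 passed the filter through its DMSO groups alone, these p-values are no separate support for the fall. GATA6, given by library above, was higher with EPZ-6438 than with DMSO in each siRNA background without overlap, by 0.49 (adjusted p = 0.196), 0.63 (adjusted p = 0.293) and 0.56 ± 0.12 (SE, adjusted p = 0.0353) over both. Over both siRNAs, the LHX1 call was lost without DMSO NTG 1 (adjusted p = 0.0581), DMSO NTG 3 (0.0781) or EPZ-6438 siMCRS1 A (0.0922), and that of GATA6 without DMSO NTG 1 (adjusted p = 0.118), DMSO NTG 3 (0.103), DMSO siMCRS1 1 (0.0618), DMSO siMCRS1 3 (0.0786), EPZ-6438 NTG 1 (0.0629), EPZ-6438 NTG 2 (0.0567), EPZ-6438 siMCRS1 A (0.0695) or EPZ-6438 siMCRS1 B (0.0779). PAX6 had 170.4 and 268 in DMSO with NTG, 354, 325 and 560.1 in DMSO with siMCRS1, 35.6, 106 and 49.4 in EPZ-6438 with NTG and 39.2 and 280.5 in EPZ-6438 with siMCRS1. Within each siRNA background the treatments did not overlap, but EPZ-6438 siMCRS1 B was above both DMSO NTG libraries, and the change over both was -1.90 (adjusted p = 0.0559). The counts for the mean effect rested on single libraries, with 0 members called without DMSO NTG 1, DMSO NTG 3 or EPZ-6438 siMCRS1 A, and 4 without EPZ-6438 siMCRS1 B. Summed mesenchymal markers also parted between treatments, at 17.8 to 22.9 normalized counts in DMSO and 56.1 to 124 in EPZ-6438, most of it COL3A1 in 4 of the 5 EPZ-6438 libraries. COL3A1 had 7.66 and 6.68 in DMSO with NTG, 1.11, 11.01 and 0 in DMSO with siMCRS1, 56.0, 37.7 and 77.8 in EPZ-6438 with NTG and 47.2 and 38.2 in EPZ-6438 with siMCRS1. With NTG, LUM had 8.62, 7.81 and 5.26 in EPZ-6438 against 0.957 and 0 in DMSO, and DCN had 3.23, 2.13 and 4.21 against 5.74 and 9.54. PDGFRA ran from 2.15 to 15.8 in 9 libraries and had 72.8 in EPZ-6438 siMCRS1 B, THY1 had at most 2 reads, and the markers' part in the family members' values was not tested.

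The interaction of siMCRS1 and EPZ-6438 asks whether the response to MCRS1 knockdown differed between treatments. It was called for 0 of 29 members, beside 0% of all genes by limma, where 336 genes had an unadjusted p under 0.05. Among the members, 3 had an unadjusted p under 0.05 (SOX7, SOX18 and TBX2), and edgeR and DESeq2 called 0 each. SOX7, called higher with siMCRS1 in DMSO alone, had an interaction of -1.16 (adjusted p = 1.000) with a 95% interval of -2.09 to -0.23, and TBX2, likewise called in DMSO alone, had -0.45 (adjusted p = 1.000), so a difference between treatments was not called for either. With 2 libraries in 2 of the 4 groups, intervals were wide: that of SOX4 ran from -0.67 to 0.89 and that of SOX6 from -1.40 to 0.57.

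**Figure D5:**
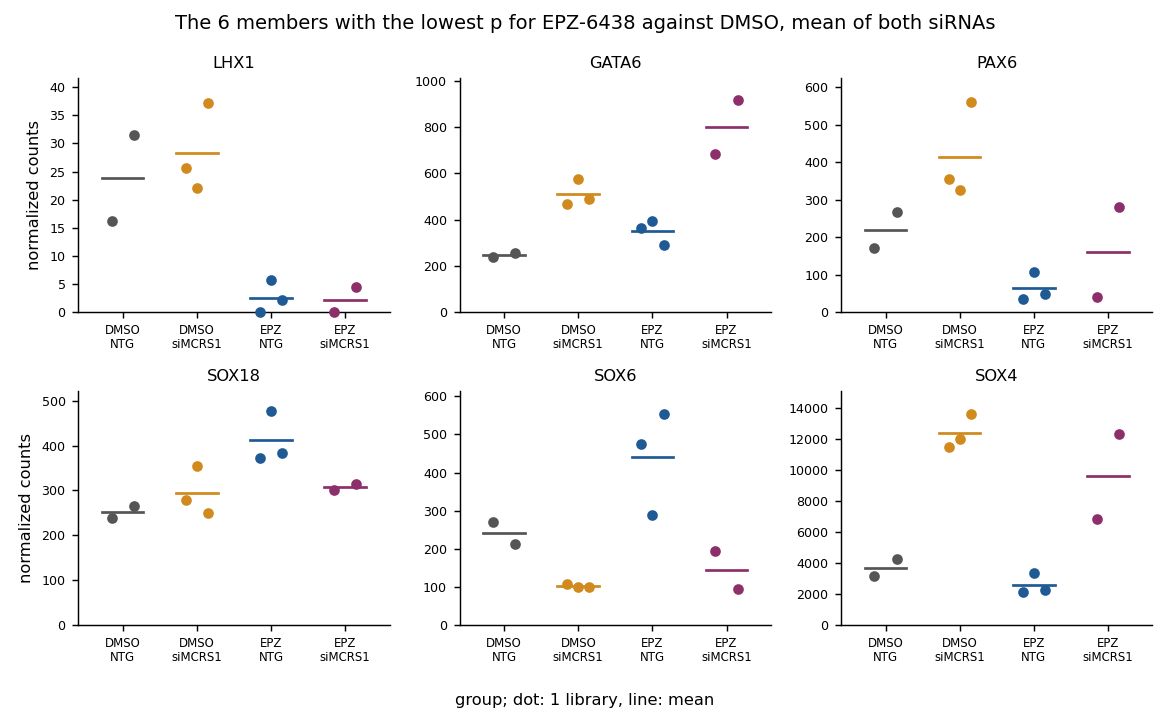
Normalized counts of the 6 members with the lowest unadjusted p for the mean effect of EPZ-6438, chosen after the values were seen, in the 10 libraries of the drug experiment, 1 panel per gene, with normalized counts on a linear vertical axis from 0, groups on the horizontal axis, 1 dot per library and a line at the group mean. LHX1 was lower in all 5 EPZ-6438 libraries than in all 5 DMSO libraries, and no member was called by limma in either background without a replicate block.

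Members below the filter were read at a filter of a mean of 1. A gene near that filter passes most easily where 1 group is high, so these members are described by their reads. SOX8, a relative of SOX9, had 4.46, 5.13 and 5.76 normalized counts in NTG, 9.54, 3.97 and 5.25 with siINO80#1 and 11.2, 12.3 and 13.2 with siINO80#2. It was above NTG in all siINO80#2 libraries, by 1.12 (adjusted p = 0.0268), and edgeR gave an adjusted p of 0.0259. At this filter limma called 42.6% of all genes with siINO80#2. In the drug experiment SOX8 had 3.83 and 2.86 in DMSO with NTG, 13.4, 22.03 and 8.59 in DMSO with siMCRS1, 1.08, 4.97 and 2.10 in EPZ-6438 with NTG and 1.600 and 14.2 in EPZ-6438 with siMCRS1, and its siMCRS1 libraries lay above the NTG libraries in DMSO but not in EPZ-6438.

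With siMCRS1, GATA1 and GATA5, both below the filter, had few or no reads. GATA5, an endoderm and heart factor, had 10 reads over 2 libraries in DMSO with NTG and 2 over 3 with siMCRS1, a ratio of 0.167 (exact 95% counting interval 0.0178 to 0.784). In EPZ-6438 it had 34 reads over 3 NTG libraries and 0 over 2 siMCRS1 libraries. Its mean was at least 4.25-fold lower there, against the mean floor of 3 reads per library. GATA1, the red cell factor, had 3 reads with NTG and 0 with siMCRS1 in DMSO, and 14 and 0 in EPZ-6438. Of these 14 reads, 9 were in EPZ-6438 NTG 3, so no bound on the size of the fall is given. Both genes passed the filter of a mean of 1 through their NTG groups alone, so no p-value is given for them. GATA3, the T-cell and breast factor, had 8, 9 and 11 reads per group in the INO80 experiment, and 0 to 2 reads per library in the drug experiment.

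The other members named below the filter in the INO80 experiment are given by their reads over all 9 libraries. Among PAX genes, PAX1 had 64, PAX2 had 14, PAX3 had 17, PAX4 had 7 and PAX9 had 26. Among SOX genes, SOX2 had 30, SOX10 had 11 and SOX15 had 57. Among TBX genes, TBX1 had 60, TBX5 had 11, TBX18 had 8 and TBX21 had 36. Among LHX genes, LHX2 had 11, LHX5 had 13 and LHX9 had 14. SIX3 had 87 reads. In the drug experiment, reads are over all 10 libraries. Among PAX genes, PAX1 had 7, PAX5 had 29 and PAX9 had 81. Among SOX genes, SOX2 had 36. Among TBX genes, TBX1 had 36, TBX18 had 9 and TBX21 had 14. Among LHX genes, LHX2 had 6 and LHX5 had 12.

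Known partners of the families were counted from a list of 21 genes, of which 11 were tested in each experiment. With siINO80#1, 2 partners were called higher and 1 lower, with siINO80#2, 4 higher and 2 lower, and with siMCRS1, 1 higher and 1 lower in DMSO and 2 and 2 in EPZ-6438. That is 3, 6, 2 and 4 of 11, beside 41.6%, 55%, 47.7% and 53.7% of all genes called. The median log2 change of the tested partners was 0.22, 0.31, 0.06 and -0.16 in these 4 comparisons, beside medians of 0.00, 0.00, 0.00 and 0.01 over all genes. LDB1, the adaptor through which LHX proteins act, changed by 0.70 (adjusted p = 5.36e-04) and 1.07 (adjusted p = 1.64e-05) with the INO80 siRNAs, whereas LMO4, which competes for LDB1, changed by -1.03 (adjusted p = 3.47e-04) and -1.12 (adjusted p = 1.02e-04). Neither was called with siMCRS1, where LDB1 changed by 0.14 in DMSO and -0.0046 in EPZ-6438, and LMO4 by -0.18 and 0.12. Their part in the values of the LHX genes was not tested. PAXBP1, a PAX3 and PAX7 adaptor, changed by 0.38 (adjusted p = 0.00142) and 0.41 (adjusted p = 5.04e-04). With siMCRS1, ISL2, a LIM homeodomain factor of motor neurons, changed by 0.99 (adjusted p = 5.77e-04) and 1.09 (adjusted p = 2.40e-04), and PAXIP1, a PAX2-binding protein, by -0.80 (adjusted p = 2.93e-04) and -0.99 (adjusted p = 5.98e-05). EPZ-6438 gave 0 called partners by limma in either background, with 1 at an unadjusted p under 0.05 in each, and edgeR called 0 in both while DESeq2 called 1 with NTG and 0 with siMCRS1.

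Of the 12 PRC2 genes listed, 11 were tested, and EZHIP had no row. With siINO80#1, 4 were called higher and 4 lower, with siINO80#2, 3 higher and 6 lower, and with siMCRS1, 3 higher and 2 lower in DMSO and 4 and 1 in EPZ-6438. That is 8, 9, 5 and 5 of 11, beside 41.6%, 55%, 47.7% and 53.7% of all genes called. Their median changes were -0.04, -0.37, -0.22 and 0.07. The accessory subunits PHF1 and MTF2, which bring PRC2 to CpG-rich DNA, were called higher in all 4, PHF1 by 1.26 (adjusted p = 6.10e-06), 1.37 (adjusted p = 1.70e-06), 1.66 (adjusted p = 7.04e-05) and 1.69 (adjusted p = 3.79e-05) and MTF2 by 0.60 (adjusted p = 9.08e-04), 0.34 (adjusted p = 0.0161), 0.87 (adjusted p = 1.45e-04) and 1.10 (adjusted p = 2.46e-05). JARID2, another accessory subunit, was also called higher in all 4, by 0.35 (adjusted p = 0.00783), 0.76 (adjusted p = 3.31e-05), 0.41 (adjusted p = 0.0186) and 0.36 (adjusted p = 0.0302). EZH1 was called lower in all 4, by -0.40 (adjusted p = 0.0101), -0.45 (adjusted p = 0.00354), -0.44 (adjusted p = 0.0499) and -0.67 (adjusted p = 0.00605). How many of all genes were called the same way in all 4 was not counted, so this overlap is not a result about PRC2. PHF19, a relative of PHF1 and MTF2, was called higher with siINO80#1 at 0.31 (adjusted p = 0.0244) and lower with siINO80#2 at -0.37 (adjusted p = 0.00741), and was not called with siMCRS1, at -0.22 (adjusted p = 0.293) and -0.10 (adjusted p = 0.638). EZH2, the catalytic subunit, changed by -0.04 (adjusted p = 0.753) with siINO80#1 and -0.47 (adjusted p = 5.49e-04) with siINO80#2, and SUZ12, a core subunit, by -0.20 (adjusted p = 0.0336) and -0.60 (adjusted p = 2.83e-05). With siMCRS1, EZH2 changed by -0.24 (adjusted p = 0.108) in DMSO and -0.12 (adjusted p = 0.383) in EPZ-6438, and SUZ12 by -0.14 (adjusted p = 0.234) and 0.07 (adjusted p = 0.526). RBBP4 was called lower with siINO80#1 (-0.54, adjusted p = 2.49e-04) and with siMCRS1 in DMSO (-0.30, adjusted p = 0.0132). RBBP7 was called lower with both INO80 siRNAs (-0.36 and -0.54), and EED with siINO80#2 (-0.49, adjusted p = 0.0305). AEBP2 was called higher with siMCRS1 in EPZ-6438 (0.43, adjusted p = 0.0227). EPZ-6438 gave 0 called PRC2 genes by limma in either background, with 3 at an unadjusted p under 0.05 with NTG and 0 with siMCRS1, and edgeR called 0 in both while DESeq2 called 1 with NTG and 0 with siMCRS1. Whether these subunits bear on the family members was not tested.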

How the data were processed

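RNA-seq libraries were prepared from HepG2 cells with a stranded mRNA kit. The authors deposited 1 table per experiment with a signal per gene symbol and library, gene counts divided by a size factor (normalized counts). Per the labels, the submitters' processing notes name kallisto, DESeq2 and GRCh38, and their versions, the transcript annotation and the use of strand in counting are not given in the sources used here. In each library 100% of values were whole multiples of 1 step (tolerance 0.01), so whole reads were recovered, although counted reads and rounded kallisto estimates cannot be told apart. Of the 30 members tested in either table, 16 are overlapped by another RefSeq gene (for example GATA2-AS1 and PAX8-AS1), and their reads may include that gene's.

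Genes whose mean over a table reached 10 normalized counts were tested with limma 3.58.1 (R 4.3.3; trend, log2(value + 1), all groups of a table in 1 fit) and Benjamini-Hochberg adjustment at 0.05, and fold changes on this scale understate those of low genes. The 2 tables were scaled separately and levels were not compared between them. Alternatives used edgeR 4.0.16 (quasi-likelihood) and DESeq2 1.42.0 on the recovered reads. The fitting was tested on simulated data. In the drug table, most columns carry a replicate number where the labels carry a letter, so libraries were placed by group. No 2 libraries of a group agreed within sampling noise (chi-square per degree of freedom 9.45 to 121 and 21.3 to 71.3). Same-letter libraries of the INO80 experiment had deviations correlated at -0.0766 to 0.263 (mean 0.103, 5 of 9 over 0.1 and 1 below 0). All 3 pairs of NTG and siINO80#1 were over 0.1, and those with siINO80#2 were not all over 0.1. The replicate block is given beside a comparison of this experiment where it changes a call. Of 7 pairs of drug libraries with the same column number, 6 were over 0.1, with 2 pairs in each comparison with DMSO NTG.

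Members tested are named with group values, except 1 that is counted but not reported here. Values of every library are given for members called in the same direction by both INO80 siRNAs or by siMCRS1 in both treatments, or called with EPZ-6438 in either background, and members below the filter are given by their reads. LHX1, PAX8, PAX6 and GATA6 are shown by library beyond that rule in 1 experiment, after their values were seen. Members, lists and comparisons were chosen with earlier results of these data known. Promoters were matched by symbol to a RefSeq table (GRCh38.p14), with 41 of 61 members matched, and motifs were read on both strands. Python 3.11.15 was used for counts and figures.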

Additional observations from a re-analysis of the deposited data

How the results depend on the processing

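Counts of called members were recomputed under other pseudocounts (0.1 and 5), filters (a mean of 1, a mean of 50, or none), scalings (equal totals, quantile normalization), eBayes without a trend, a fit of only the groups compared, edgeR or DESeq2 on recovered reads, and without each library in turn, where a group left with 1 library was assumed to vary like the others. Leaving out 1 library gave 9 to 13 called members with siINO80#1 (12 with all libraries), 9 to 13 with siINO80#2 (11), 3 to 8 between the INO80 siRNAs (8), 9 to 14 with siMCRS1 in DMSO (14, with 9 without DMSO NTG 1), 9 to 13 with siMCRS1 in EPZ-6438 (13), and 0 to 4 for the mean effect of EPZ-6438 (2). The siRNA difference fell to 5 members without a trend and with only the groups compared. EPZ-6438 with NTG gave 2 by DESeq2, and the mean effect of EPZ-6438 gave 1 with a pseudocount of 0.1, with a filter of 50, with no filter, with quantile normalization and without a trend. The causes of these shifts were not tested. Among 60 called changes of single members, 36 passed the threshold in every alternative run, 129 of 1337 alternative values no longer passed, and 0 were of opposite direction. With the letters A, B and C as a replicate block in the INO80 experiment, 13, 14 and 10 members were called with siINO80#1, with siINO80#2 and between the siRNAs, the added calls being SOX12 with siINO80#1, SOX18, TBX2 and TBX3 with siINO80#2, and GATA6 and TBX3 between the siRNAs. The share of all genes called with this block was not counted, so the added calls are not a result about the members. With the numbers in the drug table's column names as a block, over the 8 libraries that carry numbers, 15 members were called with siMCRS1 in DMSO and 4 with EPZ-6438 in NTG, against 14 and 0 for these libraries without it. Beside them, 55.9% and 8.11% of all genes were called with the block. This block was added after seeing the data. No paired analysis was possible because the letters A and B of the EPZ-6438 siMCRS1 columns cannot be matched to numbers, for the comparisons that use them. Depth limits members with under 3 reads per library, and 2 groups had 2 libraries.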
